A study of Mus musculus with 9 samples.

Results

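The transcripts described here encode the NF-κB subunits and their inhibitors, in dendritic cells (DC) of the unstimulated mouse spleen. The set was defined by gene symbol and not by measured values, although it was chosen with earlier results of these data known. It holds 10 of the 39179 genes in the count table. It comprises the subunit genes Nfkb1, Nfkb2, Rel, Rela and Relb, and the inhibitor genes Nfkbia, Nfkbib, Nfkbie, Nfkbiz and Tnfaip3. All 10 had enough counts to be tested.

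The cDC1, cDC2 and pDC of C57BL/6J mice were profiled by RNA sequencing at steady state, with 3 libraries per subset and 9 in all. The cDC1 and cDC2 are conventional DC, sorted by the presence (cDC1) or absence (cDC2) of CD8, and pDC are plasmacytoid DC. Each replicate came from the pooled spleens of 15 to 17 mice, so a value is an average over animals. The study's methods give an age of 6 to 12 weeks for its mice in general. No mouse carried a transgene or received a treatment, and the cells were taken through enzymatic digestion, density separation, depletion of other lineages and sorting before lysis.

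NF-κB transcription factors are dimers of proteins that share a Rel homology domain. RelA, RelB and c-Rel carry transactivation domains, whereas the products of Nfkb1 and Nfkb2 are precursors (p105 and p100) that are processed to the DNA-binding subunits p50 and p52. In resting cells the dimers are held in the cytoplasm by IκB proteins, which are degraded after the IKK complex phosphorylates them in the canonical pathway. In the alternative pathway the kinase NIK (Map3k14) and IKKα (Chuk) drive processing of p100 and release dimers of RelB and p52. In DC, RelB is known for its part in the development and maturation of conventional DC, and several inhibitor genes are themselves targets of NF-κB, which makes them feedback regulators.

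Several of these genes have stretches that match the κB consensus sequence near their own start sites. RefSeq promoter windows (250 bases before to 50 after a start site, build GRCm38.p6) were at hand for 7 of the 10 genes, and Nfkb1, Relb and Nfkbiz had no entry. The windows were searched on both strands for the κB consensus, a motif of 10 bases. A match was found for 5 genes, Nfkb2, Rel, Nfkbia, Nfkbie and Tnfaip3, and none for Rela or Nfkbib. A match is held by 8.46% of all 32851 promoters listed and by 9.55% of the 27025 genes. A match is a description of the letters in these windows and does not show binding. Each match is given here in 30 bases of context, written on the strand of the gene, with the matching bases in capitals, because these genes are the ones whose subset levels follow. Where matches on both strands overlapped, the capitals cover their union. The first Nfkb2 match lies at chr19:46304688-46304717 and the second at chr19:46304716-46304745. Further matches at later Nfkb2 start sites are at chr19:46305449-46305478 and chr19:46305695-46305724. The Rel match lies at chr11:23771042-23771071, the Nfkbia match at chr12:55492657-55492686 and the Nfkbie match at chr17:45555584-45555613. The Tnfaip3 matches lie at chr10:19015516-19015545 and chr10:19015403-19015432. Rel, Nfkbia and Tnfaip3 are on the minus strand, and Nfkb2 and Nfkbie on the plus strand.
Nfkb2, first: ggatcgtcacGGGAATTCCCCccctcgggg
Nfkb2, second: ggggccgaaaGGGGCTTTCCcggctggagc
Nfkb2, later start site, first: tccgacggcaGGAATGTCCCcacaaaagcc
Nfkb2, later start site, second: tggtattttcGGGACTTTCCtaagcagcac
Rel: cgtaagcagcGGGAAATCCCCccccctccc
Nfkbia: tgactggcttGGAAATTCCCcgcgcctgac
Nfkbie: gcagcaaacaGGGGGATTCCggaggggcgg
Tnfaip3, first: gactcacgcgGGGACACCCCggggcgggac
Tnfaip3, second: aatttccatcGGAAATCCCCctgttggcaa

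Counts on genes summed to between 15806597 and 32453789 per library, with the lowest total of each subset in replicate 3. Levels are given as TMM-normalized CPM, that is, counts relative to a library total scaled by its edgeR factor, and 13819 genes were tested. Subset identity genes followed the labels in most respects. The summed level of 6 cDC1 markers was 3613 to 3984 CPM in cDC1, 192 to 242 in cDC2 and 572 to 698 in pDC, and that of 5 pDC markers was 10103 to 11080 CPM in pDC and 217 to 317 in the other subsets. The 5 cDC2 markers summed to 1919 to 2079 CPM in cDC2 and 106 to 172 in cDC1, but to 2383 to 2562 in pDC, where Cd4 and Cd209a stood above their cDC2 levels. The cDC1 marker Clec9a was present in pDC at 242 to 264 CPM.

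All 5 subunits were compared first between the conventional subsets. Transcripts of 4 of the 5 (Nfkb1, Nfkb2, Rel and Relb) were higher in cDC2 than in cDC1, by 1.63 to 3.31 times, and Rela did not pass the test. Against pDC, the same 4 were higher in cDC2, by 2.14 to 9.27 times, and Rela again did not pass. Between pDC and cDC1, Relb and Rel were lower in pDC and the other 3 did not pass. The shares of the subunits that passed in these comparisons were 80%, 80% and 40%, beside 24.4%, 45.8% and 48.6% of all genes tested. In bulk libraries, fewer cells of a type and less RNA per cell cannot be told apart, so each level is that of a sorted population.

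Relb (ENSMUSG00000002983, minus strand, chr7:19606217-19629438, GENCODE M21 on GRCm38) had the widest range of subset means of the 10 genes. Its levels were 572, 489 and 492 CPM in cDC2 replicates 1, 2 and 3, 187, 127 and 155 in cDC1, and 55.7, 53.5 and 58.4 in pDC. The 3 subsets did not overlap, with every cDC2 library above every cDC1 library and every cDC1 library above every pDC library. The log2 fold change was 1.73 ± 0.14 (SE) for cDC2 against cDC1 (adjusted p = 2.56e-05, edgeR, quasi-likelihood test, Benjamini-Hochberg). For pDC it was -1.48 ± 0.14 against cDC1 (adjusted p = 1.78e-05, edgeR) and -3.21 ± 0.15 against cDC2 (adjusted p = 2.10e-07, edgeR). Only 6.34% of the tested genes had a larger range of subset means than Relb. Genes that mark mature DC moved with it between pDC and the conventional subsets. The summed level of Ccr7, Fscn1, Ccl22, Il4i1, Cacnb3 and Socs2 was 36.0 to 65.1 CPM in pDC, 603 to 1061 in cDC1 and 750 to 1081 in cDC2, and all 6 were lower in pDC in both comparisons. Of all genes tested, 24.4% were lower in pDC than in cDC1 and 23.3% were lower in pDC than in cDC2. Between cDC2 and cDC1, 1 of the 6 was higher and 1 lower, beside 12.7% and 11.7% of all genes. The part of these 6 markers in the Relb levels was not tested.

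Nfkb1 (ENSMUSG00000028163, minus strand, chr3:135584655-135691547), which encodes p105 and p50, set cDC2 apart from the other subsets. Its levels were 906, 947 and 874 CPM in cDC2, 371, 365 and 265 in cDC1, and 448, 429 and 345 in pDC. Every cDC2 library stood above all others, while cDC1 and pDC overlapped. It was higher in cDC2 than in cDC1 by 1.45 ± 0.15 on the log2 scale (adjusted p = 9.22e-05, edgeR) and lower in pDC than in cDC2 (-1.16 ± 0.15, adjusted p = 0.000142, edgeR). Between pDC and cDC1 it was 0.29 ± 0.15 and did not pass (adjusted p = 0.135, edgeR). With the replicate number as a block this difference passed (adjusted p = 0.0152, edgeR), and pDC was higher in 3 of 3 same-numbered pairs.

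Nfkb2 (ENSMUSG00000025225, plus strand, chr19:46304320-46312385), which encodes p100 and p52, kept the order of Relb over a narrower range. It stood at 325, 301 and 260 CPM in cDC2, 216, 177 and 149 in cDC1, and 148, 143 and 124 in pDC. The groups did not overlap, although the lowest cDC1 library and the highest pDC library lay close together. It was higher in cDC2 than in cDC1 by 0.71 ± 0.15 on the log2 scale (adjusted p = 0.00678, edgeR) and lower in pDC than in cDC2 (-1.09 ± 0.15, adjusted p = 0.000232, edgeR). Against cDC1, pDC stood at -0.39 ± 0.15, which did not pass (adjusted p = 0.0550, edgeR). That difference passed in 7 of 18 refits, among them the replicate block (adjusted p = 0.00155, edgeR) and DESeq2 (adjusted p = 0.0318). Of the exonic bases of Nfkb2, 18.1% are overlapped by antisense genes. The library kit keeps strand, but whether counting used it is not stated. Psd, the overlapping gene in the count table, stood at no more than 0.454 CPM in any library, and the other, AC114539.1, was not measured here.

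Rel (ENSMUSG00000020275, minus strand, chr11:23736847-23770970), which encodes c-Rel, showed the same order of subsets. Its levels were 59.7, 66.1 and 69.5 CPM in cDC2, 27.7, 26.4 and 36.0 in cDC1, and 20.4, 21.8 and 24.4 in pDC. The subsets did not overlap. It was higher in cDC2 than in cDC1 by 1.12 ± 0.14 on the log2 scale (adjusted p = 0.000376, edgeR) and lower in pDC than in cDC2 (-1.55 ± 0.15, adjusted p = 1.83e-05, edgeR). The smaller difference of pDC from cDC1, -0.43 ± 0.15, passed (adjusted p = 0.0316, edgeR) but rested on single libraries. It no longer passed without cDC1 replicate 3 (adjusted p = 0.0630, edgeR), pDC replicate 1 (0.105) or pDC replicate 2 (0.0627).

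Rela (ENSMUSG00000024927, plus strand, chr19:5637483-5648130), which encodes p65, the transactivating subunit of the classical NF-κB dimer, had the smallest range of subset means. It stood at 103, 90.5 and 118 CPM in cDC1, 119, 105 and 122 in cDC2, and 104, 104 and 115 in pDC, with all 3 subsets overlapping. The log2 fold change from cDC1 was 0.15 ± 0.12 in cDC2 and 0.05 ± 0.12 in pDC, and pDC stood at -0.10 ± 0.12 relative to cDC2. None passed (adjusted p = 0.436, 0.759 and 0.541, edgeR), and 94.99% of the tested genes had a larger range of subset means.

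**Figure D1:**
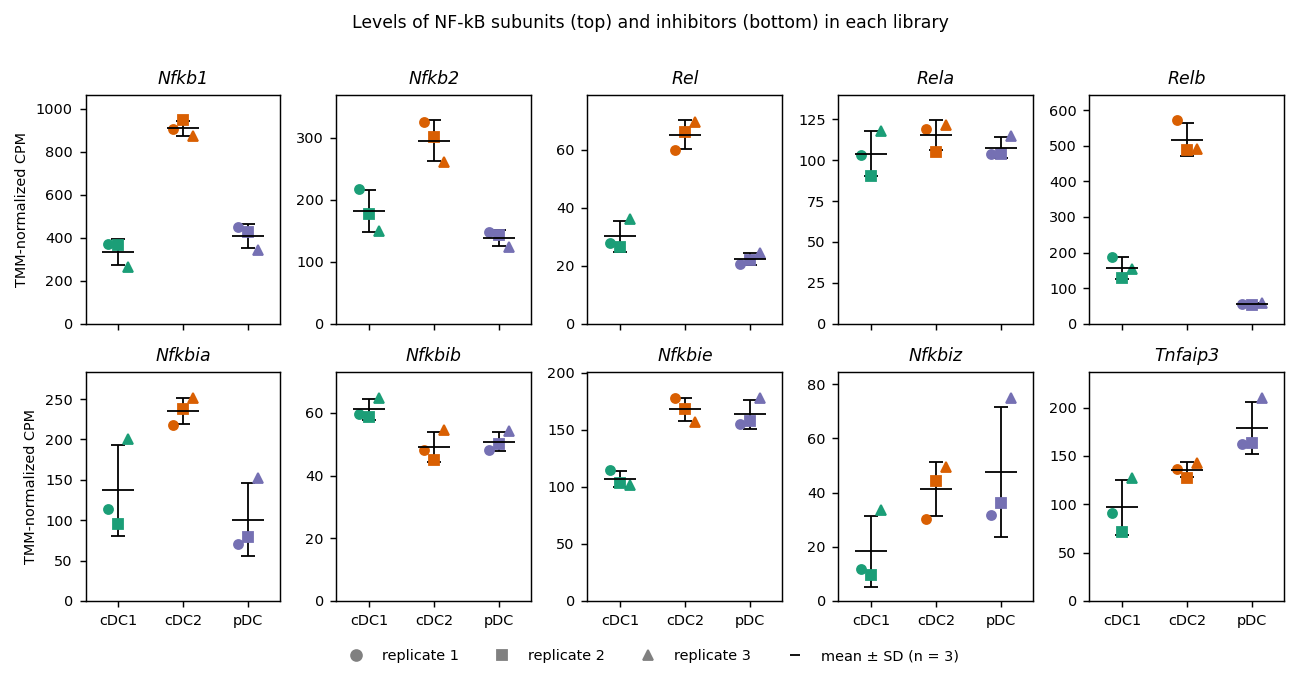
TMM-normalized CPM (linear axes from 0) of the 5 subunit genes (top) and 5 inhibitor genes (bottom) in each library of cDC1, cDC2 and pDC. Symbols mark the replicate number and bars the mean ± SD (n = 3). Relb falls into 3 separate levels, Rela overlaps in all subsets, and Nfkbia and Nfkbiz stand highest in replicate 3 of every subset.

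Levels of different genes were set side by side only per length, as CPM per kb of all annotated exons (GENCODE M21). On this scale the 5 subunits summed to 319 ± 18.5 CPM per kb (SD, n = 3) in cDC2, 145 ± 15.7 in cDC1 and 116 ± 4.63 in pDC. Relb made up 41.7% ± 1.55 of that sum in cDC2, 27.6% ± 2.83 in cDC1 and 12.4% ± 0.969 in pDC. Its share per length in single libraries was 40.2% to 43.3% in cDC2, 24.3% to 29.4% in cDC1 and 11.8% to 13.5% in pDC, with no overlap. Rela took the opposite order, at 11.8% ± 1.09 in cDC2, 23.5% ± 3.95 in cDC1 and 30.2% ± 3.00 in pDC, although its own level hardly moved. Rel was the least abundant subunit per length in every subset, at 2.57% to 2.80% of the sum on average. Each of these shares was compared over 3 libraries against 3, where an exact two-sided permutation test cannot go below p = 0.1, and the Relb and Rela shares reached 0.1 in all 3 comparisons.

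The order of the subunits within a subset depended on which length was used. Annotated Nfkb1 exons span 12.061 kb in all, against 4.117 kb for the longest coding transcript. With the latter, the Nfkb1 share per length was 33.6%, 37.9% and 48.6% in cDC1, cDC2 and pDC, instead of 19.1%, 23.7% and 29.0%. With that length Nfkb1 led in pDC, at 48.6% against 19.7% for Rela. With all exons Rela averaged above Nfkb1 in pDC (30.2% against 29.0%), but only replicate 3 had that order (33.6% against 25.7%). Nfkb1 was above Rela in pDC replicates 1 (30.9% against 28.1%) and 2 (30.3% against 28.8%). Relb led the cDC2 average by either length (41.7% and 40.1%). With the longest coding transcript, single cDC2 libraries overlapped, at 38.4% to 42.1% for Relb and 35.8% to 39.9% for Nfkb1.

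**Figure D2:**
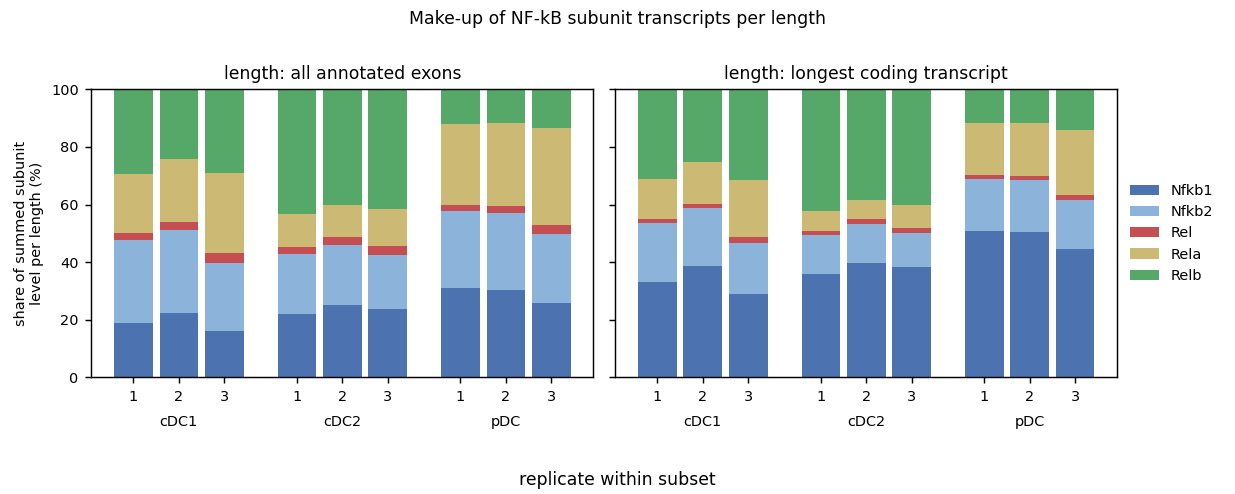
Stacked bars of the share (%) of each subunit in the summed subunit level per length, with 1 bar per library, for the length of all annotated exons (left) and of the longest coding transcript (right). The Relb part is largest in cDC2 (41.7% on average on the left) and smallest in pDC (12.4%) with either length.

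The order of the subsets differed among the inhibitors. The classical IκB genes Nfkbia, Nfkbib and Nfkbie encode IκBα, IκBβ and IκBε, which retain dimers in the cytoplasm. Nfkbiz encodes the nuclear IκBζ, a cofactor at a subset of NF-κB targets, and Tnfaip3 encodes A20, a ubiquitin-editing enzyme that limits signalling upstream of IKK. Against cDC1, Nfkbie, Nfkbiz and Tnfaip3 were higher in pDC and Nfkbie was higher in cDC2. Against cDC2, only Nfkbia of the 5 was lower in pDC and none was higher.

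Nfkbie (ENSMUSG00000023947, plus strand, chr17:45555703-45563169) set cDC1 apart from the other subsets. Its levels were 114, 103 and 102 CPM in cDC1, 178, 168 and 157 in cDC2, and 155, 158 and 178 in pDC. All cDC2 and pDC libraries stood above all cDC1 libraries, and cDC2 and pDC overlapped. It was higher than in cDC1 by 0.65 ± 0.10 on the log2 scale in cDC2 (adjusted p = 0.00116, edgeR) and by 0.62 ± 0.10 in pDC (adjusted p = 0.000678, edgeR). Between pDC and cDC2 the log2 fold change was -0.04 ± 0.10 (adjusted p = 0.799, edgeR).

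Tnfaip3 (ENSMUSG00000019850, minus strand, chr10:19000910-19015657) was at its highest in pDC. It stood at 162, 164 and 210 CPM in pDC, 137, 128 and 143 in cDC2, and 91.1, 71.6 and 128 in cDC1. The pDC libraries stood above all others, and cDC1 replicate 3 came just below the lowest cDC2 library. The difference of pDC from cDC1 was 0.89 ± 0.20 on the log2 scale (adjusted p = 0.00413, edgeR). Those of pDC from cDC2 (0.40 ± 0.20) and of cDC2 from cDC1 (0.49 ± 0.20) did not pass (adjusted p = 0.126 and 0.104, edgeR) and did with the replicate block (adjusted p = 0.0202 and 0.00782, edgeR).

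Nfkbia (ENSMUSG00000021025, minus strand, chr12:55489410-55492647) varied with the subset and with the replicate number. Its levels in replicates 1, 2 and 3 were 114, 95.8 and 201 CPM in cDC1, 218, 237 and 251 in cDC2, and 70.3, 78.9 and 152 in pDC. Every cDC2 library stood above all others, and cDC1 and pDC overlapped because replicate 3 of each was far above replicates 1 and 2. It was lower in pDC than in cDC2 (-1.23 ± 0.33 on the log2 scale, adjusted p = 0.0124, edgeR). The difference of cDC2 from cDC1 was 0.78 ± 0.33 and did not pass (adjusted p = 0.119, edgeR), but did with the replicate block (0.87 ± 0.18, adjusted p = 0.00524, edgeR). Between pDC and cDC1 it was -0.45 ± 0.33 (adjusted p = 0.293, edgeR). Per length, the ratio of Nfkbia to the summed subunits averaged 0.594 ± 0.272 in cDC1, 0.544 ± 0.267 in pDC and 0.460 ± 0.0573 in cDC2 (SD, n = 3). The ratio was 0.433, 0.442 and 0.908 in cDC1 replicates 1, 2 and 3, 0.362, 0.418 and 0.850 in pDC and 0.398, 0.470 and 0.511 in cDC2. It was thus highest in replicate 3 of each subset, the subsets overlapped, and cDC1 stood above pDC within each replicate number. Without regard to the number, an exact two-sided permutation test gave p = 0.5 to 0.9.

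Nfkbiz (ENSMUSG00000035356, minus strand, chr16:55811375-55838899) had the lowest CPM per kb among the inhibitors, at 3.65, 8.23 and 9.497 on average in cDC1, cDC2 and pDC, and a wide spread between replicates. Its levels were 11.8, 9.55 and 33.5 CPM in cDC1, 30.1, 44.3 and 49.5 in cDC2, and 31.8, 36.0 and 75.1 in pDC. Replicate 3 of cDC1 reached the range of the other subsets. It was higher in pDC than in cDC1 by 1.40 ± 0.49 on the log2 scale (adjusted p = 0.0392, edgeR) and in 3 of 3 same-numbered pairs. That call was lost without any of 5 single libraries, cDC1 replicate 1 (adjusted p = 0.129, edgeR), cDC1 replicate 2 (0.118), cDC2 replicate 2 (0.0551), cDC2 replicate 3 (0.0553) or pDC replicate 3 (0.140), and was kept with the replicate block (adjusted p = 0.000926, edgeR). The difference of cDC2 from cDC1, 1.19 ± 0.49, did not pass (adjusted p = 0.113, edgeR). It did with the replicate block (0.00276), without cDC1 replicate 3 (0.00961), without replicate 3 of all subsets (0.000832) and with limma-voom (0.0319). Between pDC and cDC2 it was 0.21 ± 0.48 (adjusted p = 0.759, edgeR), with the opposite sign (-0.28) without pDC replicate 3.

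Nfkbib (ENSMUSG00000030595, minus strand, chr7:28758251-28767512) had the smallest range of subset means among the inhibitors. It stood at 59.7, 58.7 and 64.9 CPM in cDC1, 48.1, 44.8 and 54.4 in cDC2, and 48.2, 50.03 and 54.3 in pDC. All cDC1 libraries stood above the others, by less than the test required. The log2 fold changes from cDC1 were -0.32 ± 0.11 in cDC2 and -0.27 ± 0.11 in pDC (adjusted p = 0.0671 and 0.0738, edgeR), which passed with the replicate block (adjusted p = 0.0103 and 0.0143, edgeR). Between pDC and cDC2 it was 0.05 ± 0.11 (adjusted p = 0.749, edgeR). Antisense genes overlap 16.4% of its exonic bases. Ccer2 overlaps 14.5% and stood at no more than 0.219 CPM in any library, and Sirt2 overlaps 1.94% and stood at 64.6 to 105 CPM.

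Over the set, 5 of 10 members passed between cDC2 and cDC1, all higher in cDC2, where 24.4% of all genes tested passed (12.7% higher and 11.7% lower). The median log2 fold change of the members was 0.74, against 0.03 over all genes. Between pDC and cDC2, 5 of 10 passed, all lower in pDC, beside 45.8% of all genes (22.5% higher and 23.3% lower), with medians of -0.60 and -0.01. Between pDC and cDC1, 5 of 10 passed, 3 higher and 2 lower in pDC, beside 48.6% of all genes (24.3% higher and 24.4% lower), with medians of -0.11 and 0.02. The members' share called was thus near the background in the comparisons with pDC. With the replicate block the counts were 9 between cDC2 and cDC1 (background 35.6%), 6 between pDC and cDC2 (55.5%) and 8 between pDC and cDC1 (58.6%). Without the 3 libraries of replicate 3, an alternative chosen after the data were seen, 9 members passed between cDC2 and cDC1 and 9 between pDC and cDC1. The count over all genes rose too between cDC2 and cDC1, from 3370 to 5356. For pDC against cDC1 in that refit no background is given here, so the members' count is not set against one. Each pair of comparisons shares a subset, so their values are given side by side and are not independent.

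**Figure D3:**
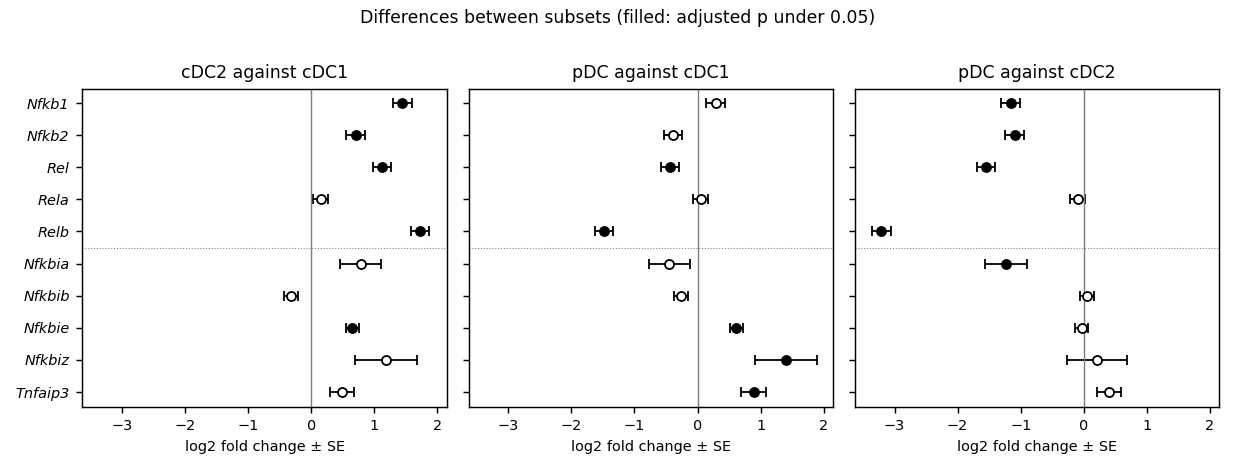
Log2 fold change ± SE of the 10 genes in each comparison (first-named subset over second, edgeR), with subunits above and inhibitors below the dotted line. Filled points have an adjusted p under 0.05. In cDC2 against cDC1, Nfkb1, Nfkb2, Rel and Relb lie to the right of 0, and in pDC against cDC2 they lie to the left, with Relb at -3.21.

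The replicate number marked a second source of variation. Same-numbered libraries of the 3 subsets carry the same date-like code in the labels, and 3 of the 10 members differed among the numbers in a fit with subset and replicate number (edgeR's quasi-likelihood F test), where 16.3% of all genes tested did. These were Nfkb2 (adjusted p = 0.0192, edgeR), Nfkbiz (0.0200) and Nfkbia (0.0326). Nfkbia in replicate 3 was 1.92, 1.10 and 2.04 times the mean of replicates 1 and 2 in cDC1, cDC2 and pDC, and Nfkbiz was 3.14, 1.33 and 2.21 times that mean. Nfkb2 was 0.758, 0.831 and 0.851 times that mean. Rel, Rela, Nfkbia, Nfkbib, Nfkbiz and Tnfaip3 were each highest in replicate 3 in 3 of 3 subsets, and Nfkb1 and Nfkb2 each lowest. The share of all genes with such an order was not determined. Of other pathway genes, Chuk and Ikbkg were likewise highest in 3 of 3 subsets and Ikbkb and Map3k14 lowest, whereas Bcl3 and Nfkbid were neither. Tnfaip3 did not pass (adjusted p = 0.0635, edgeR), at 1.57, 1.08 and 1.29 times. The count of 3 was not stable to single libraries, since it became 0 without cDC1 replicate 1 or cDC1 replicate 3, 1 without pDC replicate 1 or pDC replicate 3, and 5 without cDC2 replicate 3.

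Immediate-early and heat-shock genes moved with the replicate number too. Of 10 such genes, among them Fos, Jun, Egr1, Atf3 and Dusp1, 9 passed the same test. Their summed level in replicates 1, 2 and 3 was 2951, 1957 and 6180 CPM in cDC1, 3142, 3433 and 6003 in cDC2, and 1565, 1638 and 3990 in pDC. The summed level of 5 NK cell markers was highest in replicate 3 as well, where it reached 78.1 CPM (cDC2), 41.8 (pDC) and 27.0 (cDC1), against at most 31.9 in any other library. The part of either list in the Nfkbia and Nfkbiz levels was not tested. Macrophage markers (7 genes) summed to 454 to 633 CPM in cDC2, 94.4 to 164 in cDC1 and 29.8 to 166 in pDC. Of the 7, 5 were higher in cDC2 than in cDC1, where 12.7% of all genes were, and none was lower. Much of the cDC2 sum was Adgre1, at 344 CPM on average against 14.0 in cDC1, while Vcam1 averaged 67.9 against 72.6. The part of the macrophage markers in the Relb and Nfkb1 levels was not tested.

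**Figure D4:**
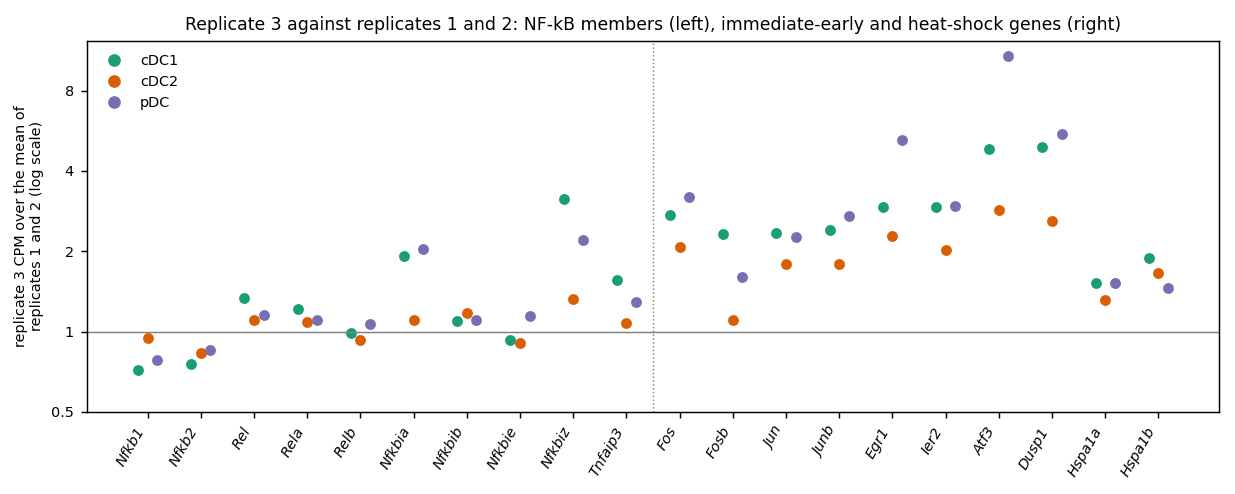
CPM in replicate 3 over the mean of replicates 1 and 2 (log scale) in cDC1, cDC2 and pDC, for the 10 members (left of the dotted line) and 10 immediate-early and heat-shock genes (right). Nfkbia (1.92, 1.10 and 2.04) and Nfkbiz (3.14, 1.33 and 2.21) rise furthest above 1 among the members in cDC1 and pDC, and Nfkbiz does in cDC2.

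Around the members, 57 further genes of the pathway were listed by role, of which 56 were tested. Of these, 20 (35.7%, beside 24.4% of all genes) passed between cDC2 and cDC1, 16 of them higher in cDC2. Between pDC and cDC2, 35 (62.5%, beside 45.8%) passed, 28 of them lower in pDC. Between pDC and cDC1, 30 passed, 11 higher and 19 lower in pDC, a share (53.6%) near the 48.6% of all genes. With the replicate block 31 passed between cDC2 and cDC1, where 35.6% of all genes did, 26 of them higher in cDC2. Median log2 fold changes (no block) were 0.28, -0.51 and -0.17, against 0.03, -0.01 and 0.02 over all genes.

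The remaining IκB genes, Bcl3 and Nfkbid, averaged lowest in cDC1. Bcl3, whose product binds p50 and p52 homodimers in the nucleus, stood at 73.7, 67.8 and 78.5 CPM in cDC2, 45.9, 49.7 and 33.0 in pDC and 22.4, 18.7 and 21.5 in cDC1. These 3 levels did not overlap. It was higher than in cDC1 by 1.81 ± 0.16 on the log2 scale in cDC2 (adjusted p = 4.25e-05, edgeR) and by 1.04 ± 0.16 in pDC (adjusted p = 0.000464, edgeR), and lower in pDC than in cDC2 (-0.77 ± 0.16, adjusted p = 0.00284, edgeR). Nfkbid, which encodes the nuclear IκBNS, stood at 28.8, 37.5 and 29.98 CPM in cDC2, 11.8, 9.93 and 19.1 in cDC1 and 17.6, 36.9 and 20.8 in pDC. It was higher in cDC2 than in cDC1 by 1.25 ± 0.32 (adjusted p = 0.0170, edgeR) and in pDC by 0.89 ± 0.32 (adjusted p = 0.0408, edgeR), whereas pDC and cDC2 overlapped and did not pass (-0.36 ± 0.31, adjusted p = 0.385, edgeR). The cDC2 call was lost without cDC1 replicate 1, cDC1 replicate 2 or cDC2 replicate 2 (adjusted p = 0.0693, 0.0686 and 0.0681, edgeR), and the pDC call without cDC1 replicate 1 or 2, any cDC2 library or pDC replicate 2 (0.0562 to 0.186).

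Among 10 kinase genes, 1 passed between cDC2 and cDC1, and 4 passed in each comparison with pDC (1 higher and 3 lower). These shares lay below those of all genes, which were 24.4% between cDC2 and cDC1, 45.8% between pDC and cDC2 and 48.6% between pDC and cDC1. Map3k14 (NIK) stood at 192, 192 and 151 CPM in cDC2, 107, 116 and 67.1 in cDC1 and 61.9, 71.3 and 35.5 in pDC. It was lower in pDC than in cDC2 by -1.66 ± 0.27 on the log2 scale (adjusted p = 0.000762, edgeR). Its difference between cDC2 and cDC1, 0.88 ± 0.27 (adjusted p = 0.0389, edgeR), passed with all libraries and was lost without any 1 of the 6 cDC libraries or pDC replicate 1 (0.0507 to 0.133). That of pDC from cDC1, -0.78 ± 0.27 (adjusted p = 0.0366, edgeR), was lost without cDC1 replicates 1 or 2, cDC2 replicates 1 or 2, or pDC replicates 1 or 3 (0.0511 to 0.123). Both passed with the replicate block (adjusted p = 0.000265 and 0.000319, edgeR). Map3k14 differed among the replicate numbers too (adjusted p = 0.00826, edgeR), at 0.602, 0.784 and 0.533 times in replicate 3 in cDC1, cDC2 and pDC. Chuk (IKKα) was lower in pDC, where it averaged 68.7 ± 5.32 CPM, than in cDC1 (130 ± 9.05) or cDC2 (116 ± 12.8) (adjusted p = 0.000126 and 0.000498, edgeR). Ikbkb (IKKβ) and Ikbkg (NEMO) passed in none of the 3 comparisons, with log2 fold changes from cDC1 of 0.15 and 0.08 in pDC and of 0.46 and 0.05 in cDC2, and from cDC2 of -0.31 and 0.03 in pDC. Ikbkb passed with the replicate block in cDC2 against cDC1 (adjusted p = 0.00122, edgeR) and in pDC against cDC2 (0.00679). Ikbke, which encodes the IKK-related kinase IKKε, was low and higher in pDC, at 8.21 ± 1.38 CPM against 0.524 ± 0.141 in cDC1 and 1.14 ± 0.421 in cDC2 (adjusted p = 2.64e-05 and 0.000160, edgeR).

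Of 11 adaptor genes, 7 were lower and 1 higher in pDC than in cDC2, 3 lower and 1 higher in pDC than in cDC1, and 5 higher in cDC2 than in cDC1. The shares that passed were 72.7%, 36.4% and 45.5%, beside 45.8%, 48.6% and 24.4% of all genes. Traf1, a TNF receptor adaptor, stood at 379, 331 and 341 CPM in cDC2, 245, 193 and 176 in cDC1 and 42.0, 35.5 and 37.6 in pDC, again with no overlap. It was lower in pDC by -3.19 ± 0.15 on the log2 scale against cDC2 (adjusted p = 1.91e-07, edgeR) and by -2.41 ± 0.14 against cDC1 (7.64e-07), and higher in cDC2 than in cDC1 by 0.78 ± 0.14 (0.00232). Tank, whose product binds TRAF proteins, stood at 36.3 ± 4.05 CPM in pDC, 64.2 ± 11.9 in cDC1 and 102 ± 15.6 in cDC2, and was lower in pDC in both comparisons (adjusted p = 0.00258 and 6.29e-05, edgeR). Traf5 was lower in pDC than in cDC1 (12.3 ± 2.15 against 21.6 ± 0.755 CPM, adjusted p = 0.00310, edgeR). Traf2 was higher in cDC2 than in cDC1 (80.4 ± 3.16 against 41.6 ± 4.30 CPM, adjusted p = 0.00144, edgeR) and lower in pDC than in cDC2 (35.5 ± 7.08 CPM in pDC, adjusted p = 0.000159, edgeR). Traf3, a brake on NIK, was higher in cDC2 than in cDC1 (69.4 ± 15.3 against 33.2 ± 11.9 CPM, adjusted p = 0.0386, edgeR). The Traf3 call was lost without cDC1 replicate 1 or 3, cDC2 replicate 1 or 2, or pDC replicate 1 (0.0570 to 0.141).

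Of 14 ubiquitin-editing genes, 4 were higher and 4 lower in pDC than in cDC2, 4 higher and 3 lower in pDC than in cDC1, and 4 higher and 2 lower in cDC2 than in cDC1. The shares that passed were 57.1%, 50% and 42.9%, of which those with pDC were near the 45.8% and 48.6% of all genes, beside 24.4% in the last comparison. Otud7b, which encodes the deubiquitinase Cezanne, stood at 52.7 ± 10.01 CPM in pDC, 17.1 ± 5.28 in cDC1 and 6.02 ± 0.335 in cDC2, and passed in all 3 comparisons (adjusted p at most 0.00134, edgeR). Btrc, which encodes the β-TrCP subunit that recognizes phosphorylated IκB, stood at 52.8 ± 1.83 CPM in pDC, 12.6 ± 0.883 in cDC1 and 16.6 ± 2.29 in cDC2, and was higher in pDC by 2.06 ± 0.14 and 1.67 ± 0.14 on the log2 scale (adjusted p = 1.60e-06 and 6.16e-06, edgeR). Tnip3, which encodes an A20-binding protein, had 6, 0 and 0 counts in the pDC libraries, against 93, 66 and 37 in cDC1 and 67, 64 and 28 in cDC2. Otulin, which removes linear ubiquitin chains, and Tnip1, another A20-binding protein, were higher in cDC2 than in cDC1, at 125 ± 7.98 against 77.2 ± 4.17 CPM and 101 ± 13.4 against 62.5 ± 12.6 CPM (adjusted p = 0.000505 and 0.0192, edgeR). The Tnip1 call was lost without cDC1 replicate 2 or 3, or cDC2 replicate 1 or 2 (0.0538 to 0.0792).

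Among genes of the CARD-BCL10-MALT1 (CBM) complexes, Card9, the scaffold used downstream of C-type lectin receptors, was lower in pDC, at 5.88 ± 2.46 CPM against 15.5 ± 0.938 in cDC1 and 20.9 ± 5.80 in cDC2 (adjusted p = 0.00397 and 0.000889, edgeR). Malt1, the paracaspase, was highest in cDC2, at 172 ± 22.7 CPM against 111 ± 15.3 in pDC and 66.5 ± 8.87 in cDC1, and passed in all 3 comparisons (adjusted p at most 0.00643, edgeR).

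Of 16 genes known as NF-κB targets, 15 were tested and Cxcl2 was not. Between pDC and cDC2, 11 of the 15 were lower in pDC and none was higher, where 23.3% of all genes were lower and 22.5% higher. Between pDC and cDC1, 9 were lower and 1 higher, where 24.4% of all genes were lower and 24.3% higher. Between cDC2 and cDC1, 3 were higher and 2 lower, where 24.4% of all genes passed. The maturation marker Cd83 stood at 10.7, 4.11 and 12.3 CPM in pDC, 375, 342 and 357 in cDC1 and 357, 303 and 317 in cDC2, and was lower in pDC by -5.30 ± 0.35 and -5.17 ± 0.35 on the log2 scale (adjusted p = 1.48e-06 and 1.82e-06, edgeR). Il1b, which encodes interleukin-1β, averaged 111 ± 9.07 CPM in cDC2 against 42.0 ± 5.04 in cDC1 and 2.43 ± 1.52 in pDC, and was higher in cDC2 than in cDC1 by 1.40 ± 0.30 (adjusted p = 0.00677, edgeR). Il12b, which encodes the shared subunit of interleukins 12 and 23, was higher in cDC1, at 45.4, 32.4 and 22.5 CPM, than in cDC2, at 4.08, 5.46 and 2.76 (log2 fold change of cDC2 against cDC1 -3.02 ± 0.38, adjusted p = 0.000339, edgeR). The chemokine gene Ccl3 was higher in cDC2, at 14.1, 26.6 and 40.8 CPM against 2.33, 2.38 and 7.72 in cDC1 (adjusted p = 0.00513, edgeR). Il6 had 0 counts in all pDC libraries, where 3 counts would be 0.0908 to 0.177 CPM, against 21, 16 and 18 counts in cDC1 and 10, 8 and 8 in cDC2. The mature DC markers given beside Relb were lower in pDC in the same comparisons, and their part in these target genes was not tested.

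**Figure D5:**
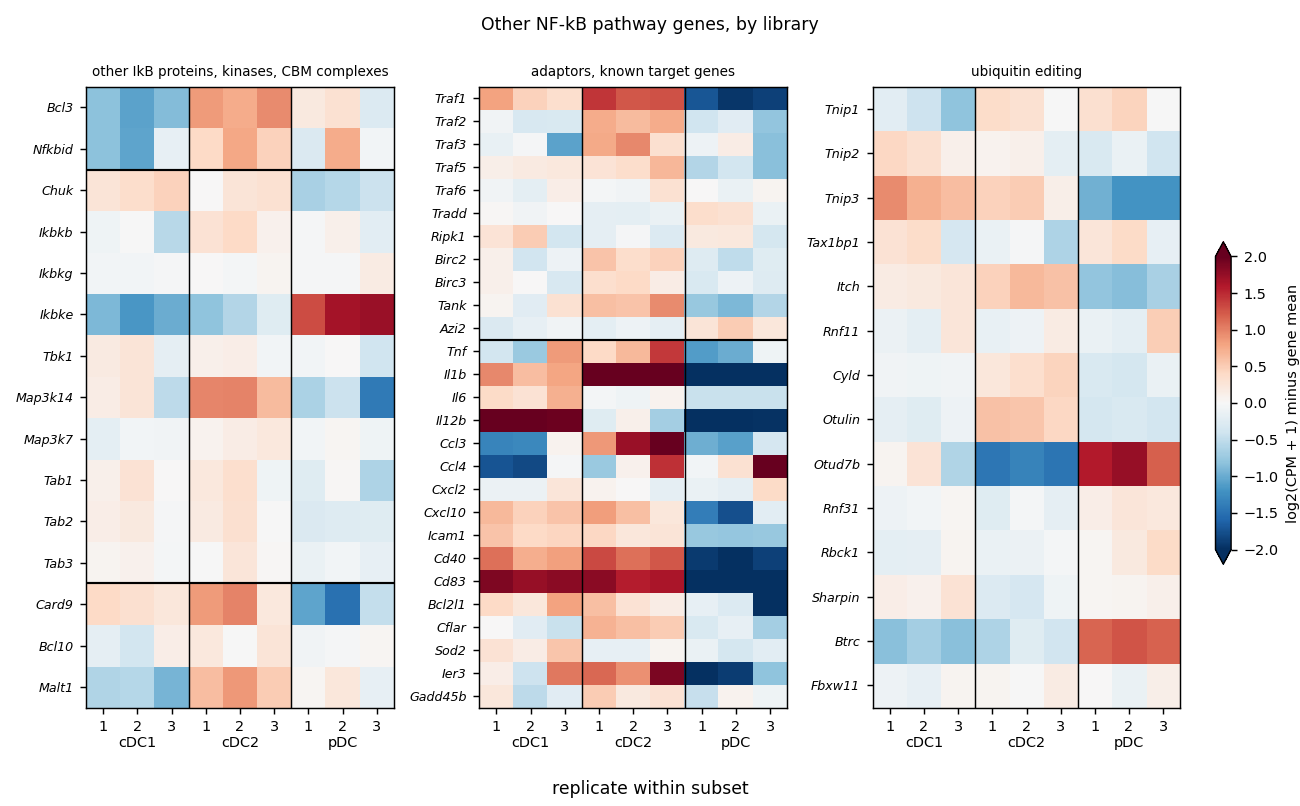
Heat map of log2(CPM + 1) minus the gene's mean over the 9 libraries, for 56 pathway genes (rows) grouped by role and the libraries of cDC1, cDC2 and pDC (columns, replicates 1 to 3). Colours end at -2 and 2 on the log2 scale. Traf1, Cd40, Cd83 and Il1b are below their means in pDC, and Otud7b, Btrc and Ikbke above.

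For the 3 members with the widest range of subset means, the tested genes nearest in pattern over the 9 libraries were sought by the root mean square difference of centred log2 levels. Nearest to Relb were Limd2 (0.176), Susd2 (0.195) and Haus8 (0.217). Nearest to Rel were Lta4h (0.0763), Cd5 (0.0932) and Gcnt1 (0.114), and nearest to Nfkb1 were Prkcb (0.102), Ptprc (0.105) and Bach1 (0.140). Limd2, for instance, averaged 945 CPM in cDC2 against 240.2 in cDC1 and 110.1 in pDC, which places the subsets in the order of Relb.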

How the data were processed

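Stranded libraries of polyadenylated RNA were sequenced over 75 bases. The authors deposited raw read counts per gene, not normalized; the submitters' processing notes name STAR, SAMtools, featureCounts, MultiQC and mm10, and the paper names Degust. The annotation release and the strand setting of the counting are not given in the sources used here. Differences were tested with edgeR 4.0.16 under R 4.3.3 (filterByExpr with a minimum count of 10, TMM, quasi-likelihood test, Benjamini-Hochberg adjustment over 13819 genes, threshold 0.05), with all 9 libraries fitted together and subset as the only term. The members and gene lists were chosen with earlier results of these data known. Named genes were all 10 members, per pathway list at most 3 genes passing with the largest change, and Bcl3, Nfkbid, Chuk, Ikbkb, Ikbkg and Map3k14 whatever their values; genes named for their pattern lie nearest by root mean square difference. Marker lists are given by their sums, and Cd4, Cd209a, Clec9a, Adgre1, Vcam1 and the antisense neighbours were singled out after their values were seen. Single values of 1 listed pathway gene are not reported here.

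Replicates were separate pools of mice. Replicates of a subset differed by more than counting noise (chi-square per degree of freedom 9.93 to 64.4). Deviations from subset means correlated between same-numbered libraries (mean r 0.403, 0.266 to 0.543 over 9 pairs). Between others the mean r was -0.180 (-0.472 to 0.170). Deviations sum to 0 within a subset, so this second mean is not independent of the first. The shared date-like code was therefore treated as a pairing in the replicate block, which was an alternative. The main fit and the permutation tests did not use the pairing. Alternatives were the replicate block, DESeq2 1.42.0, limma-voom (limma 3.58.1), library size only, upper quartile scaling, at least 10 counts in every library or no filter, the 6 libraries compared, stricter thresholds, each library left out, another gene length, and, added after the data were seen, leaving out replicate 3, and all of these for the named pathway genes. The test was checked on counts simulated without an effect of the replicate number, so the check does not cover such an effect. Gene lengths and overlaps came from GENCODE M21 (GRCm38, the same assembly as mm10), promoters from RefSeq. Totals of 15806597 to 32453789 counts put the floor of 3 counts at 0.0908 to 0.203 CPM, which covers counting error only.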

Additional observations from a re-analysis of the deposited data

How the results depend on the processing

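The calls of Relb in all 3 comparisons, of Nfkb1, Nfkb2 and Rel in both comparisons with cDC2, of Nfkbie against cDC1, of Tnfaip3 in pDC against cDC1 and of Nfkbia in pDC against cDC2 held at an adjusted p under 0.05 in all 18 refits run. At an adjusted p under 0.01 the Nfkbia call was lost, and at a log2 fold change of at least 1 in size those of Nfkb2 in cDC2 against cDC1, of Nfkbie and of Tnfaip3. Rel in pDC against cDC1 did not pass with library size only (adjusted p = 0.0625, edgeR) or in the 6 libraries compared (0.0585), nor did Nfkbiz in the latter (0.0721). In the same comparison Map3k14 did not pass in either (0.0723 and 0.0682), nor Nfkbid in the latter (0.0800). Some differences that did not pass in the main fit passed in part of the 18 refits. Between pDC and cDC1 these were Nfkb2 (7 refits), Nfkbib (3), Nfkb1 (2) and Nfkbia (2). Between cDC2 and cDC1 they were Nfkbia (6), Nfkbib (4), Nfkbiz (4) and Tnfaip3 (4). Tnfaip3 passed in 3 between pDC and cDC2. Ikbkb in cDC2 against cDC1 also passed with DESeq2 (adjusted p = 0.0304) and limma-voom (0.0435). Values near 0 changed sign: Rela in pDC against cDC1 without cDC1 replicate 2 (-0.040, range -0.040 to 0.11 over libraries left out), Nfkbib in pDC against cDC2 without cDC2 replicate 2 (-0.012, range -0.012 to 0.12), Nfkbie in pDC against cDC2 without cDC2 or pDC replicate 1 (0.0069 and 0.0029, range -0.15 to 0.0069), and Nfkbiz in pDC against cDC2 without pDC replicate 3 (-0.28) or replicate 3 of all subsets (-0.14; range -0.28 to 0.43). Ikbkb in pDC against cDC1 did so without cDC1 replicate 3 (range -0.036 to 0.25), and Ikbkg in pDC against cDC1 without replicate 3 (-0.011 to 0.11), in pDC against cDC2 without pDC replicate 3 (-0.036) or replicate 3 (-0.014; range -0.036 to 0.063), and in cDC2 against cDC1 without cDC2 replicate 3 (-0.0012 to 0.063). Members passing between pDC and cDC1 numbered 8 with the replicate block, 3 in the 6 libraries, 9 without replicate 3, 3 at an adjusted p under 0.01, 2 at a log2 fold change of at least 1 in size, and 4 to 9 over libraries left out. Between cDC2 and cDC1 they numbered 9 with the block, 8 with limma-voom, 9 without replicate 3 and 3 at that fold change, and 5 to 9 over libraries left out, with 8 without cDC1 replicate 3. Genes passing at that fold change numbered 4063 between pDC and cDC1, 3837 between pDC and cDC2, and 1812 between cDC2 and cDC1. The last comparison gave 2103 at an adjusted p under 0.01 and 2451 to 5356 over libraries left out, the highest without replicate 3. With the block, 58.6% of all genes passed between pDC and cDC1 and 35.6% between cDC2 and cDC1. For settings with no count over all genes given here, the members' counts are not set against a background. Members differing among replicate numbers were 5 with no filter or at least 10 counts in every library, 6 with DESeq2 or limma-voom, 0 at an adjusted p under 0.01, and 0 to 5 with single libraries left out. All such genes numbered 3462 with limma-voom and 921 at an adjusted p under 0.01, with 1243 to 2268 over single libraries left out. With the longest coding transcript, shares in cDC1, cDC2 and pDC were 33.6%, 37.9% and 48.6% for Nfkb1, 19.4%, 13.1% and 17.7% for Nfkb2, 1.69%, 1.502% and 1.48% for Rel, and 16.04%, 7.30% and 19.7% for Rela, and the Nfkbia ratio in cDC2 was 0.257. The cause of these changes was not tested, beyond the shorter length, the stricter threshold and the fewer libraries themselves. Apart from the calls given beside the results, the replicate block changed none among the members. Library size alone moved the median of all genes by 0.11 between cDC2 and cDC1 and turned no member's sign.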
